A study of Mus musculus with 22 samples.

Results

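The genes examined here encode subunits of the AMPA and NMDA receptors, the channels that carry most fast excitatory transmission in the brain. They are 9 genes out of 21718 protein-coding genes whose span overlapped the bins used: Gria1, Gria2 and Gria4 for AMPA receptors, and Grin1, Grin2a, Grin2b, Grin2c, Grin2d and Grin3a for NMDA receptors. They were chosen by name, with no measured value in the rule. Earlier results of these data were known when they, and the marker and partner lists used below, were chosen. Each gene was placed on mm10 (GRCm38) by its span in GENCODE release M 21, and every 100 kb bin of 5mC and every 1 Mb bin of 5hmC that overlapped the span was taken, together with 500 kb on either side. This gave 28 of 25664 bins of 100 kb and 10 of 2581 bins of 1 Mb, and in none of these or of the flanking bins was a library listed at 0 or 1, so none was left out.

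An AMPA receptor is a tetramer of GluA subunits that opens when glutamate binds. An NMDA receptor holds the obligatory subunit GluN1 together with GluN2 or GluN3 subunits, and the kind of GluN2 sets how long the channel stays open and where in the brain it is used. In rodents GluN2B is known as a subunit of the forebrain and of the immature brain, while GluN2C is known from cerebellar granule cells. Methylated cytosine (5mC) at CpG sites can be oxidized by TET enzymes to hydroxymethylcytosine (5hmC), which is abundant in neurons and in the bodies of genes that neurons use.

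Cerebral cortex, olfactory bulb and cerebellum were compared in wild-type C57BL/6 mice at 8 weeks of age, which the methods give as female. Replicates of a tissue came from independent mice. The methods word the tissues as taken from a single mouse, so libraries of different tissues may share animals. Which of them do is not given by the labels. The tissues were whole, so each level is an average over neurons and glia, and a different make-up of cells and a different level within cells cannot be told apart. OxBS-seq, which oxidizes 5hmC before bisulfite treatment and leaves 5mC as the modification read as C, was done on 3 cortices, 2 olfactory bulbs and 2 cerebella. TAB-seq, in which only 5hmC is protected and read as C, had 3 libraries per tissue. RNA was not analysed here, so nothing below concerns expression of the receptor genes.

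The level of a bin is the fraction of modified calls, from 0 to 1, with no read count behind it, so its depth is unknown and the SD between libraries is the error given. Genome means of 5mC were 0.677 ± 0.0147 (SD, n = 3) in cortex and 0.707 ± 0.00286 (n = 2) in olfactory bulb, and 0.731 ± 0.0114 (n = 2) in cerebellum, and those of 5hmC were 0.163 ± 0.00946, 0.145 ± 0.00431 and 0.0949 ± 0.00176 (n = 3 each). In limma fits on log2(level/(1 - level)), called the log2 ratio below, the median gene feature was shifted by 0.20 in olfactory bulb against cortex, by 0.33 in cerebellum against cortex and by 0.13 in cerebellum against olfactory bulb. The receptor genes were therefore also given relative to that shift, as the gene minus its 500 kb flanks in the same library and as levels centred on the median of each library. The labelled tissues were checked on marker genes of their cells by asking in which tissue a marker had its lowest 5mC relative to the genome mean. This was cerebellum for 11 of 12 cerebellar neuron markers and cortex for 7 of 10 cortical neuron markers, against 45.4% and 28.2% of all gene features. For olfactory bulb, 4 of 9 markers of its neurons were lowest in olfactory bulb, where 26.4% of all features were, and another 4 were lowest in cerebellum. Markers with the same bins were each counted (Dlx1 and Dlx2, Zic1 and Zic4, and Olig1 and Olig2 of the glial lists), while such genes are 1 feature among all features. The shares are thus not on quite the same unit. Of the glial markers, 4 of 6 for oligodendrocytes and 3 of 5 for astrocytes were lowest in cortex. The margins of these below the next tissue were small, the widest being that of Mobp, with -0.0694 for cortex against -0.0605 for cerebellum. Of the glial markers lowest elsewhere, Aldh1l1 also had a small margin. Wider ones were those of Slc1a3 (-0.0885 in olfactory bulb, -0.0487 in cortex), Mog (-0.222 in olfactory bulb, -0.188 in cortex) and Mag (-0.0510 in cerebellum, -0.0171 in cortex). No spread between libraries is given for single markers, so these counts do not show whether the glial lists moved with the tissues. The part of glia in the receptor genes' values was not tested.

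The receptor genes differ greatly in size and CpG content, which sets how much of a bin is the gene. Gria1, Gria4, Grin2a and Grin2b span 319, 378, 428 and 460 kb and cover 79.7%, 94.6%, 85.5% and 92.1% of their 100 kb bins. Grin3a (184 kb) and Gria2 (121 kb) cover 61.4% and 40.5%. Grin2d (46.5 kb), Grin1 (28.0 kb) and Grin2c (18.1 kb) are short, cover only 46.5%, 14.0% and 18.1% of their bins, and share them with other genes. The bins of Grin1, Grin2c and Grin2d hold between 16.0 and 20.4 CpG sites per kb, against between 4.88 and 9.53 for the 6 longer genes. The DNA just upstream of a start is shown for Grin2c, Gria4 and Gria2, whose start bins differed between tissues as described below. Start bins of Gria1, Grin2a and Grin2b differed as well, but the promoter set used held no sequence for these or for Grin3a. Each run is the 250 bases before the start from RefSeq (GRCm38.p6), 5′ to 3′ on the gene's own minus strand, with every CpG (the motif CG, the same on both strands) in capitals: Grin2c at chr11:115267244-115267493, Gria4 at chr9:4796235-4796484 and Gria2 at chr3:80802836-80803085.
Grin2c: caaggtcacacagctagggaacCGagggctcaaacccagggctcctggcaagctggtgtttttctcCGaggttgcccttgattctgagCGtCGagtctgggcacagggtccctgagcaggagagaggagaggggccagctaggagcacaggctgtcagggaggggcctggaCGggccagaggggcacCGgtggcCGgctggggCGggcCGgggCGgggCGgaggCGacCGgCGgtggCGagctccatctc
Gria4: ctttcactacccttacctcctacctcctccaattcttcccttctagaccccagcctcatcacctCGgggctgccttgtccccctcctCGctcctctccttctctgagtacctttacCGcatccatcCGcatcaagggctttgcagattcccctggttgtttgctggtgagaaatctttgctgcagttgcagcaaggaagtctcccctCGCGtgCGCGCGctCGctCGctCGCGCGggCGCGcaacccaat
Gria2: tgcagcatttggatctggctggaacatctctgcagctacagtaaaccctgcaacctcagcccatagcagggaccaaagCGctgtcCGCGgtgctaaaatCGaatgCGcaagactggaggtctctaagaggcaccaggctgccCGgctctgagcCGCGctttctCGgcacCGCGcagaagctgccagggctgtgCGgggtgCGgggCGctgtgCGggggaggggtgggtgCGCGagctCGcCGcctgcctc
These windows hold 15, 16 and 19 CpG sites. The median over 32851 promoters of the same length was 6, 92.1% held at least 1, and 27.3%, 25.4% and 19.7% held at least as many as Grin2c, Gria4 and Gria2. A 100 kb bin says little about such a window: the 250 bases hold 0.737% of the CpG sites of the Grin2c start bin, 2.89% of those of Gria4 and 2.85% of those of Gria2.

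In cerebellum the 5mC of the receptor genes differed from cortex in both directions. Averaged over the bins of each gene, 5mC was higher in cerebellum than in cortex for Gria1, Gria2, Grin2a, Grin2b and Grin3a and lower for Grin2c, so 6 of 9 genes passed the test where 67.3% of 13995 gene features did. The share that passed was thus near the background, and so were the directions, with 5 genes higher and 1 lower where 62.8% and 4.54% of all features passed. With each library centred on its median 6 of 9 genes passed, with Gria1, Gria2 and Grin2b higher and Gria4, Grin1 and Grin2c lower, where 46.8% of features did, 18.3% as higher and 28.5% as lower. Relative to their flanks, 5 of 9 genes differed in cerebellum against cortex, with Gria1, Gria2 and Grin2b higher and Gria4 and Grin2c lower, where 28.3% of 14001 features passed, 15.3% as higher and 13% as lower. Without cerebellum replicate 1 that count was 3. The median difference of the 9 genes was 0.00180 and that of all features 0.00137.

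**Figure D1:**
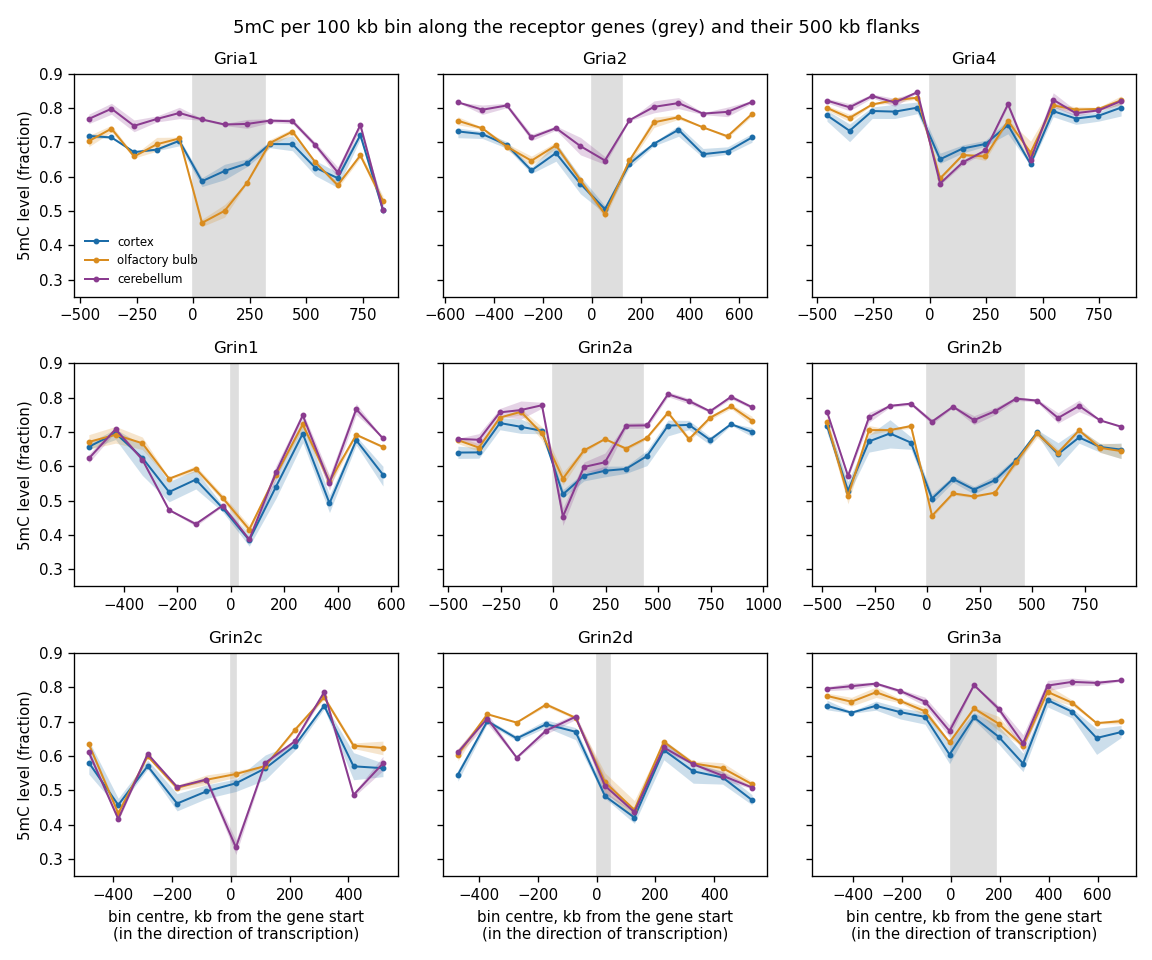
5mC level (fraction, vertical axis) of every 100 kb bin along the 9 receptor genes, plotted against the distance of the bin's centre from the gene start in kb, in the direction of transcription. Grey marks the gene, points joined by lines are tissue means, and the band spans the lowest and highest library of a tissue. In cerebellum the dip of cortex and olfactory bulb over Gria1 and Grin2b is missing, while a dip stands over the Grin2c bin and at the start of Grin2a.

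In olfactory bulb against cortex 2 of 9 genes passed per gene, with Gria1 lower and Grin2a higher, where 31.8% of features passed, 30.5% as higher and 1.31% as lower. Centred, 3 passed, all lower (Gria1, Gria4 and Grin2b), where 13.6% of features did, 5.69% as higher and 7.87% as lower. Relative to the flanks 5 of 9 passed, with Grin2a higher and Gria1, Gria2, Gria4 and Grin2b lower, where 10.6% of features passed, 5.87% as higher and 4.76% as lower. Several of these calls depended on single libraries. Leaving out olfactory bulb replicate 1 or 2 left 1 and 0 genes per gene in limma, with 3 (Gria1, Grin2a and Grin2d) at an unadjusted p under 0.05 in the latter case. The count relative to the flanks was between 1 and 4 over all libraries left out. It was 1 without olfactory bulb replicate 1 or 2, and 2 without cortex replicate 1 or 3 or cerebellum replicate 1 or 2. In cerebellum against olfactory bulb 5 of 9 genes passed per gene, with Gria1, Gria2, Grin2b and Grin3a higher and Grin2c lower, where 33.8% of features passed, 25.4% as higher and 8.32% as lower. Centred, 6 passed, with Gria1, Gria2 and Grin2b higher and Grin1, Grin2a and Grin2c lower, where 41.7% of features did, 17.3% as higher and 24.3% as lower. Relative to the flanks 5 of 9 passed, with Gria1, Gria2 and Grin2b higher and Grin2a and Grin2c lower, where 26.8% of features passed, 13.8% as higher and 13.1% as lower. The 3 comparisons share libraries, so their calls are not independent of each other.

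Of the single 100 kb bins, 22 of 28 passed in cerebellum against cortex, with 18 higher and 4 lower, where 76.4% of all bins passed, 71.9% as higher and 4.44% as lower. In olfactory bulb against cortex 9 of 28 passed, with 4 higher and 5 lower, where 39.7% of all bins passed, 37.6% as higher and 2.18% as lower. Without olfactory bulb replicate 1 or 2 that count was 4 and 3. In cerebellum against olfactory bulb 19 of 28 passed, with 16 higher and 3 lower, where 43% of all bins passed, 35.3% as higher and 7.69% as lower. With each library centred on its median the split of the calls moved to 2 higher and 12 lower in olfactory bulb against cortex, 14 and 9 in cerebellum against cortex, and 14 and 8 in cerebellum against olfactory bulb, where 18.7%, 50% and 43.4% of all bins passed.

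**Figure D2:**
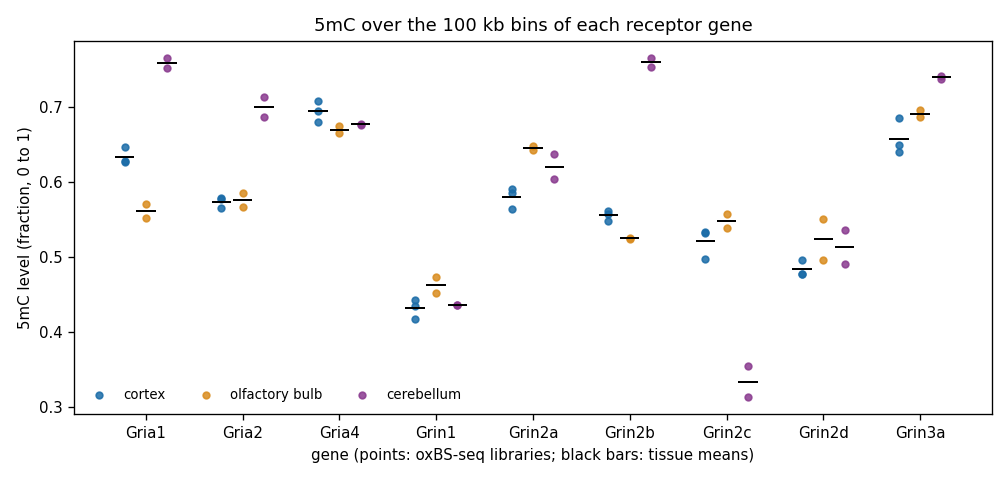
5mC level (fraction, vertical axis) averaged over the 100 kb bins of each receptor gene, with 1 point per oxBS-seq library and a black bar at the tissue mean. The cerebellum libraries of Grin2b (0.753 and 0.766) and Gria1 (0.753 and 0.765) sit above all others of the same gene, and those of Grin2c (0.313 and 0.355) below.

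Gria1, on chr11:57011387-57330244 (plus strand), encodes GluA1, the AMPA subunit known for its traffic into synapses during plasticity. Its 5mC over 4 bins was 0.628, 0.647 and 0.627 in cortex, 0.571 and 0.552 in olfactory bulb, and 0.765 and 0.753 in cerebellum. The order was olfactory bulb below cortex below cerebellum, with no overlap between the libraries of any pair of tissues. Of all gene features, 70.1% had cerebellum above cortex without overlap and 50.3% had it above olfactory bulb, while 3% had olfactory bulb below cortex. These shares are also the background for the genes below. On the log2 ratio scale olfactory bulb was lower than cortex by -0.44 ± 0.11 (SE, adjusted p = 0.00185), among the 0.522% of features with the lowest values, although the call was lost without olfactory bulb replicate 2 (adjusted p = 0.0838). Cerebellum was higher than cortex by 0.86 ± 0.11 (adjusted p = 4.79e-11) and than olfactory bulb by 1.30 ± 0.12 (adjusted p = 9.55e-18).

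The flanks of Gria1 were at 0.663 ± 0.0107 in cortex (n = 3) and 0.665 ± 0.00516 in olfactory bulb (n = 2), and 0.719 ± 0.0146 in cerebellum (n = 2), so cortex and olfactory bulb overlapped there while cerebellum was higher by 0.0559, against 0.125 for the gene. Gene minus flanks was -0.0419, -0.0202 and -0.0238 in cortex, -0.0970 and -0.109 in olfactory bulb, and 0.0358 and 0.0444 in cerebellum, so that the gene stood below its surroundings in cortex and olfactory bulb and above them in cerebellum. The differences were -0.0745 ± 0.0103 for olfactory bulb against cortex (adjusted p = 0.00323), 0.0687 ± 0.0103 for cerebellum against cortex (adjusted p = 0.00145) and 0.143 ± 0.0113 for cerebellum against olfactory bulb (adjusted p = 4.29e-05). All 3 held with each oxBS-seq library left out in turn.

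Within Gria1 the tissues differed most at the 5′ end. In the start bin (chr11:57000001-57100000) 5mC was 0.592, 0.597 and 0.571 in cortex, 0.476 and 0.454 in olfactory bulb, and 0.769 and 0.764 in cerebellum. In the last bin, of which the gene covers only 30.2%, the means were 0.695, 0.698 and 0.763. In the bin before it, wholly inside the gene, they were 0.639, 0.583 and 0.753. The start bin minus the last bin was -0.108 ± 0.00443 (SD, n = 3) in cortex and -0.233 ± 0.00142 (n = 2) in olfactory bulb, and 0.00356 ± 0.00432 (n = 2) in cerebellum. This contrast, in part with DNA beyond the gene, was widest in olfactory bulb and close to 0 in cerebellum. The libraries did not overlap, and the exact permutation test gave p = 0.1 against cortex for either tissue and 0.333 between the other 2, the smallest values that these group sizes allow. No share over all genes is given for this contrast, here or for the genes below.

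Gria2, on chr3:80681450-80802835 (minus strand), encodes GluA2, the edited subunit that keeps AMPA receptors from passing calcium. Its 5mC over 3 bins was 0.578, 0.578 and 0.565 in cortex, 0.585 and 0.566 in olfactory bulb, and 0.713 and 0.687 in cerebellum. Cortex and olfactory bulb overlapped, while both cerebellum libraries were higher. Cerebellum exceeded cortex by 0.79 ± 0.11 on the log2 ratio scale (adjusted p = 8.72e-10) and olfactory bulb by 0.78 ± 0.12 (adjusted p = 6.3e-08).

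Much of that rise was shared with the region around Gria2. Its flanks were at 0.692 ± 0.00864 in cortex (n = 3) and 0.788 ± 0.0129 in cerebellum (n = 2). Gene minus flanks was -0.119, -0.119 and -0.117 in cortex, -0.149 and -0.160 in olfactory bulb, and -0.0844 and -0.0918 in cerebellum. It was higher in cerebellum than in cortex by 0.0300 ± 0.00888 (adjusted p = 0.0326), which was lost without cortex replicate 1 or 2 or cerebellum replicate 1 or 2, with adjusted p between 0.0604 and 0.201, and on the log2 ratio scale (0.07, adjusted p = 0.445). The difference between olfactory bulb and cortex (-0.0364 ± 0.00888, adjusted p = 0.0327) was lost when any of the 7 libraries was left out, with adjusted p between 0.0566 and 0.157. The difference between cerebellum and olfactory bulb, 0.0664 ± 0.00972 (adjusted p = 0.00129), was not. The only bin wholly inside the gene (chr3:80700001-80800000) had 5mC of 0.515, 0.507 and 0.492 in cortex, 0.503 and 0.479 in olfactory bulb and 0.658 and 0.635 in cerebellum. The start bin (chr3:80800001-80900000), of which the gene covers only 2.83%, also holds part of Glrb, a glycine receptor subunit. It was at 0.579 ± 0.0262 in cortex and 0.589 ± 0.0107 in olfactory bulb, and 0.689 ± 0.0360 in cerebellum, which was higher than cortex (0.69 ± 0.12, adjusted p = 3.53e-08) and than olfactory bulb (0.63 ± 0.13, adjusted p = 1.35e-05).

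Gria4, on chr9:4417896-4796234 (minus strand), encodes GluA4, a subunit of fast AMPA receptors. Averaged over its 4 bins the 5mC levels were close, at 0.695, 0.708 and 0.681 in cortex, 0.665 and 0.675 in olfactory bulb, and 0.677 and 0.677 in cerebellum, and no pair of tissues passed the test per gene. With centred levels Gria4 passed as lower than cortex in olfactory bulb (-0.38, adjusted p = 0.00541) and in cerebellum (-0.49, adjusted p = 0.000283). Its flanks were higher in the other tissues than in cortex, with 0.767 ± 0.0162 in cortex and 0.792 ± 0.00304 in olfactory bulb, and 0.799 ± 0.0118 in cerebellum. Gene minus flanks was thus -0.0826, -0.0672 and -0.0675 in cortex, -0.130 and -0.116 in olfactory bulb, and -0.130 and -0.114 in cerebellum. Olfactory bulb was lower than cortex by -0.0504 ± 0.0103 (adjusted p = 0.0162), lost without olfactory bulb replicate 1 or 2 (adjusted p = 0.109 and 0.0513). Cerebellum was lower by -0.0496 ± 0.0103 (adjusted p = 0.00719), lost without cerebellum replicate 1 (adjusted p = 0.0827). Cerebellum and olfactory bulb overlapped.

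The near-equal gene means of Gria4 came with a difference between its start and its end. In the start bin (chr9:4700001-4800000), which the gene covers to 96.2%, 5mC was 0.645, 0.668 and 0.638 in cortex, 0.589 and 0.601 in olfactory bulb, and 0.575 and 0.584 in cerebellum, and both tissues were lower than cortex (log2 ratio -0.34 ± 0.12, adjusted p = 0.0139, and -0.43 ± 0.12, adjusted p = 0.000482). The first of these was lost without cortex replicate 2 or olfactory bulb replicate 1 or 2, with adjusted p between 0.0658 and 0.173. In the last bin the gene was higher in cerebellum, at 0.805 and 0.816 against 0.761, 0.765 and 0.725 in cortex (0.51 ± 0.12, adjusted p = 4.17e-05). That rise was near the 0.43 of the median 100 kb bin, and with centred levels it did not pass (0.10, adjusted p = 0.340), while the start bin stayed lower (-0.84, adjusted p = 1.67e-06). Start bin minus last bin was -0.0997 ± 0.0149 in cortex and -0.168 ± 0.00317 in olfactory bulb, and -0.231 ± 0.00219 in cerebellum, without overlap (exact permutation p = 0.1, 0.1 and 0.333, the smallest possible).

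**Figure D3:**
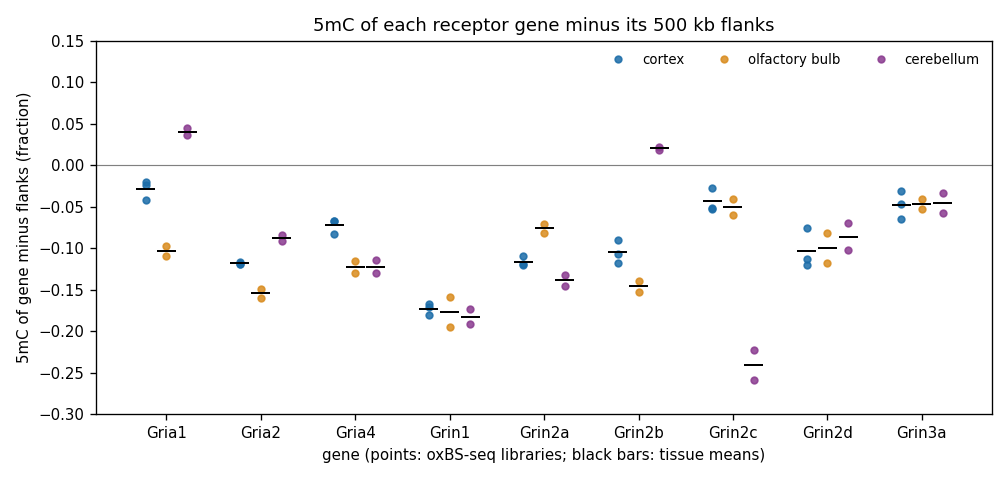
5mC of each receptor gene minus the mean of the bins in its 500 kb flanks (fraction, vertical axis), with 1 point per oxBS-seq library, black bars at tissue means and a grey line at 0. Nearly all values are below 0, and the 4 exceptions are the cerebellum libraries of Gria1 and Grin2b.

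Grin1, on chr2:25291181-25319187 (minus strand), encodes GluN1, without which no NMDA receptor forms. Its 2 bins had the lowest 5mC of the 9 genes in cortex and olfactory bulb, with 0.435, 0.443 and 0.417 in cortex, 0.452 and 0.473 in olfactory bulb, and 0.436 and 0.436 in cerebellum. No comparison passed per gene or relative to the flanks. The log2 ratio of cerebellum against cortex was 0.03 ± 0.11 (adjusted p = 0.840), below the shift of the median feature, and with centred levels it was -0.35 (adjusted p = 0.00304). Gene minus flanks was near -0.17 in every tissue, with means of -0.173 ± 0.00654, -0.177 ± 0.0256 and -0.182 ± 0.0129. Grin1 holds only 15.8% of the CpG sites of these bins, so their levels are mostly those of its surroundings.

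Grin2a, on chr16:9567898-9995560 (minus strand), encodes GluN2A, the GluN2 subunit that comes to prevail in the mature forebrain. Its 5mC over 5 bins was 0.585, 0.591 and 0.564 in cortex, 0.647 and 0.643 in olfactory bulb, and 0.637 and 0.604 in cerebellum. Olfactory bulb was higher than cortex by 0.39 ± 0.11 on the log2 ratio scale (adjusted p = 0.00502), and this was lost without olfactory bulb replicate 1 or 2 (adjusted p = 0.115 and 0.0609) and with centred levels (0.18, adjusted p = 0.0691). Cerebellum was higher by 0.24 ± 0.11 (adjusted p = 0.0482), less than the shift of the median feature. That call was lost without cortex replicate 1 or 3, olfactory bulb replicate 1 or 2 or cerebellum replicate 1, with adjusted p between 0.0736 and 0.439, and centred levels gave -0.13 (adjusted p = 0.0887).

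Relative to its flanks Grin2a was at -0.119, -0.110 and -0.120 in cortex, -0.0705 and -0.0819 in olfactory bulb, and -0.132 and -0.146 in cerebellum. It was the only 1 of the 9 genes to pass as higher in olfactory bulb than in cortex on this measure (0.0401 ± 0.00963, adjusted p = 0.0312), a call lost without cortex replicate 1 or 3 or any olfactory bulb or cerebellum library, with adjusted p between 0.0552 and 0.161. Cerebellum was lower than olfactory bulb by -0.0626 ± 0.0105 (adjusted p = 0.00266), which held with each library left out. Against cortex it did not pass (-0.0225, adjusted p = 0.110).

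The direction of the cerebellum turned along Grin2a. In the start bin (chr16:9900001-10000000) 5mC was 0.509, 0.533 and 0.514 in cortex, 0.583 and 0.546 in olfactory bulb, and 0.480 and 0.428 in cerebellum, which was lower than cortex (-0.37 ± 0.12, adjusted p = 0.00254, lost without cerebellum replicate 2 at adjusted p = 0.171). In the fourth bin (chr16:9600001-9700000), still wholly inside the gene, it was 0.601, 0.597 and 0.579, then 0.647 and 0.657, then 0.726 and 0.711, and cerebellum was higher than cortex (0.81 ± 0.12, adjusted p = 9.47e-11). Start bin minus last bin, which the gene covers only in part, was -0.112 ± 0.0250 in cortex and -0.119 ± 0.0197 in olfactory bulb, and -0.266 ± 0.0244 in cerebellum. Cortex and olfactory bulb overlapped, and cerebellum stood apart from both (exact permutation p = 0.1 and 0.333, the smallest possible).

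Grin2b, on chr6:135713233-136173511 (minus strand), encodes GluN2B, which in the rodent cerebellum is known to be replaced during the first postnatal weeks. Among the receptor genes it rose most in cerebellum. Its 5mC over 5 bins was 0.557, 0.562 and 0.549 in cortex, 0.526 and 0.524 in olfactory bulb, and 0.766 and 0.753 in cerebellum. Olfactory bulb lay below cortex without overlap but did not pass per gene, except with centred levels (-0.39, adjusted p = 0.00321), and cerebellum lay far above both. Cerebellum exceeded cortex by 1.33 ± 0.11 on the log2 ratio scale (adjusted p = 3.88e-21), a rank of 9 from the highest among 13995 features, and olfactory bulb by 1.51 ± 0.12 (adjusted p = 2.45e-22), a rank of 10 from the highest. With centred levels the values were 0.96 (adjusted p = 7.76e-06) and 1.35 (adjusted p = 2.55e-06).

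Gene minus flanks of Grin2b was -0.107, -0.118 and -0.0896 in cortex, -0.152 and -0.139 in olfactory bulb, and 0.0216 and 0.0187 in cerebellum. The gene was therefore a trough of 5mC in cortex and olfactory bulb, and none was seen in cerebellum. The difference from cortex was 0.125 ± 0.0108 (adjusted p = 9.52e-05), a rank of 27 from the highest among 14001 features, and that from olfactory bulb 0.166 ± 0.0118 (adjusted p = 2.61e-05). The difference between olfactory bulb and cortex, -0.0409 ± 0.0108 (adjusted p = 0.0429), was lost without cortex replicate 1 or 3 or any olfactory bulb or cerebellum library, with adjusted p between 0.0776 and 0.206.

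The rise in cerebellum ran along the whole of Grin2b. The means of the 5 bins from start to end were 0.506, 0.564, 0.532, 0.560 and 0.618 in cortex and 0.730, 0.774, 0.735, 0.761 and 0.797 in cerebellum, and the log2 ratio of cerebellum against cortex was between 1.28 and 1.41 in each. In olfactory bulb they were 0.456, 0.521, 0.512, 0.523 and 0.613, with a log2 ratio against cortex between -0.12 and -0.29 in the first 4 bins and of -0.03 in the last. Of these the start bin passed (chr6:136100001-136200000, -0.29 ± 0.12, adjusted p = 0.0377). That call was lost without cortex replicate 1 or 2 or olfactory bulb replicate 1 or 2, with adjusted p between 0.0904 and 0.239. Start bin minus last bin was -0.112 ± 0.00323 in cortex and -0.157 ± 0.0204 in olfactory bulb, and -0.0672 ± 0.00318 in cerebellum, without overlap (exact permutation p = 0.1, 0.1 and 0.333).

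**Figure D4:**
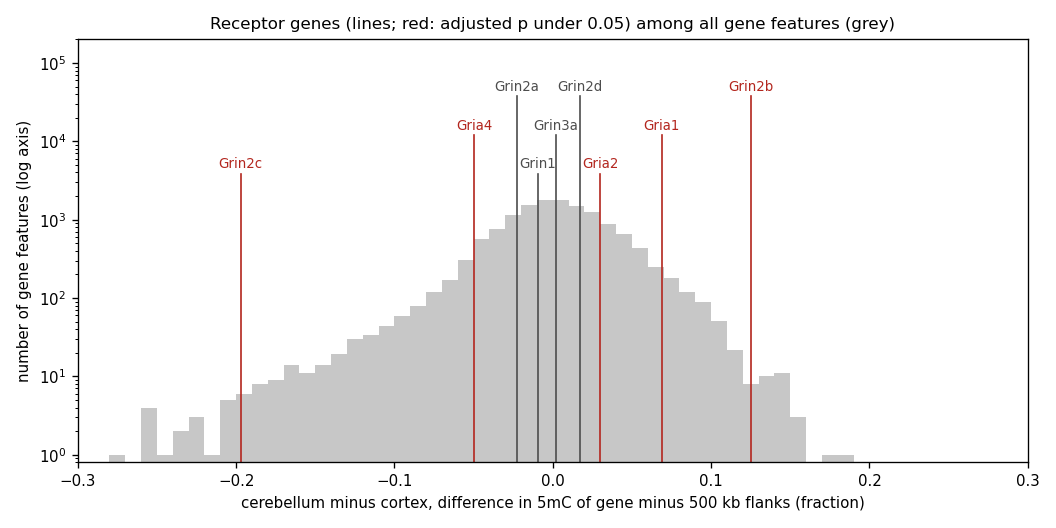
Cerebellum minus cortex in 5mC of gene minus flanks (fraction, horizontal axis) for 14001 protein-coding gene features, as a grey histogram with a logarithmic count axis, with the 9 receptor genes as labelled lines, red where the adjusted p was under 0.05. Grin2c (-0.197) lies far in the lower tail and Grin2b (0.125) in the upper, while Grin1, Grin3a, Grin2d and Grin2a lie near the centre.

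Grin2c, on chr11:115249169-115267243 (minus strand), encodes GluN2C, the GluN2 subunit of mature cerebellar granule cells. It went the other way from Grin2b. The bin that holds it (chr11:115200001-115300000), whose upstream sequence is shown above, had 5mC of 0.532, 0.533 and 0.497 in cortex, 0.538 and 0.557 in olfactory bulb, and 0.355 and 0.313 in cerebellum. Both cerebellum libraries were lower than every other library. Of all gene features, 5.99% had cerebellum below cortex without overlap and 19.6% had it below olfactory bulb. On the log2 ratio scale per gene the difference was -1.12 ± 0.11 from cortex (adjusted p = 4.31e-16), a rank of 7 from the lowest among 13995 features, and -1.27 ± 0.12 from olfactory bulb (adjusted p = 5.31e-17), a rank of 16 from the lowest. Gene minus flanks was -0.0271, -0.0523 and -0.0519 in cortex, -0.0596 and -0.0406 in olfactory bulb, and -0.223 and -0.259 in cerebellum, with differences of -0.197 ± 0.0136 (adjusted p = 2.91e-05) and -0.191 ± 0.0149 (adjusted p = 4.17e-05). These held with each library left out. The flanks were at 0.565 ± 0.0190, 0.598 ± 3.59e-05 and 0.575 ± 0.00361, so the flanks as a whole did not carry the low value. The gene covers 18.1% of that bin and holds 25.2% of its CpG sites, and Fads6, Fdxr and Tmem104 share the bin, so the value cannot be assigned to Grin2c alone.

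In 5mC Grin2d passed in no comparison, and Grin3a passed only where its surroundings were not subtracted. Grin2d, on chr7:45831883-45878378 (minus strand), encodes GluN2D, a subunit of slow channels best known from interneurons and the young brain. Its 1 bin was at 0.477, 0.477 and 0.496 in cortex, 0.551 and 0.497 in olfactory bulb, and 0.537 and 0.491 in cerebellum, where the libraries of olfactory bulb, and those of cerebellum, differed more from each other than the tissue means did. Its log2 ratio of cerebellum against cortex was 0.17 ± 0.11 (adjusted p = 0.166) and -0.20 with centred levels (adjusted p = 0.146), and no 5mC comparison passed. Grin3a, on chr4:49661611-49845744 (minus strand), encodes GluN3A, which binds glycine in place of glutamate. Its 5mC was 0.649, 0.685 and 0.640 in cortex, 0.696 and 0.686 in olfactory bulb, and 0.737 and 0.742 in cerebellum, and cerebellum was higher than cortex (0.56 ± 0.11, adjusted p = 8.2e-06) and than olfactory bulb (0.34 ± 0.12, adjusted p = 0.0221). With centred levels both calls were lost (0.19, adjusted p = 0.0678, and 0.18, adjusted p = 0.104). The second call was lost when any olfactory bulb or cerebellum library was left out, with adjusted p between 0.087 and 0.195. Gene minus flanks of Grin3a was -0.0476 ± 0.0167 in cortex (n = 3) and -0.0470 ± 0.00902 in olfactory bulb (n = 2), and -0.0458 ± 0.0172 in cerebellum (n = 2), as the flanks rose from cortex to cerebellum by 0.0797 and the gene by 0.0815.

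5hmC could be read only per 1 Mb, and the bin with the start of a gene is to be read as a region. The gene covers 42.8% of that area for Grin2a, 37.8% for Gria4, 31.9% for Gria1 and 23.0% of 2 bins for Grin2b, but only 2.80% for Grin1, 1.81% for Grin2c and 4.65% for Grin2d. For 5hmC the limma fit gave every bin the same SE (0.07), taken from all bins together. The SE and adjusted p of a 5hmC bin below therefore do not use the spread of that bin. For 5mC per gene and per 100 kb bin they use it little. There the prior degrees of freedom, from all features, were 165 and 905, against 4 from the feature itself. Over all 1 Mb bins the median log2 ratio was -0.97 in cerebellum against cortex and -0.24 in olfactory bulb against cortex. In cerebellum against cortex 9 of the 10 receptor bins passed as lower, where 98.1% of all bins passed, 0.426% as higher and 97.6% as lower. In olfactory bulb against cortex 7 of 10 passed, 3 of them higher and 4 lower, where 70.9% passed, 3.25% as higher and 67.7% as lower. In cerebellum against olfactory bulb 7 of 10 passed as lower, where 93% passed, 1.2% as higher and 91.8% as lower.

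The 3 bins that passed with more 5hmC in olfactory bulb than in cortex were those of Gria1, of Grin2a and of the 3′ part of Grin2b. The bins of Gria2 (log2 ratio 0.07, adjusted p = 0.368) and of the 5′ part of Grin2b (0.08, adjusted p = 0.289) also had higher means but did not pass. Centred, 5 of the 10 bins passed as higher and 3 as lower, where 36.2% and 33% of all bins did. The Gria1 bin had 0.191, 0.205 and 0.183 in cortex, 0.212, 0.217 and 0.210 in olfactory bulb and 0.0920, 0.0903 and 0.0917 in cerebellum. The rise in olfactory bulb was 0.18 ± 0.07 on the log2 ratio scale (adjusted p = 0.0214), lost without cortex replicate 1 or 3 or olfactory bulb replicate 2, with adjusted p between 0.0609 and 0.0896. The fall in cerebellum was -1.25 ± 0.07 against cortex (adjusted p = 5.47e-64), more than the median bin, and remained with centred levels (-0.21, adjusted p = 1.02e-05).

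The Grin2a bin had 5hmC of 0.201, 0.202 and 0.185 in cortex, 0.219, 0.222 and 0.215 in olfactory bulb, and 0.151, 0.153 and 0.157 in cerebellum. Its rise in olfactory bulb (0.20 ± 0.07, adjusted p = 0.00953) was lost without cortex replicate 3 (adjusted p = 0.0590), and its fall in cerebellum (-0.42 ± 0.07) was smaller than that of the median bin. The 3′ bin of Grin2b had 0.211, 0.219 and 0.197 in cortex, 0.234, 0.245 and 0.238 in olfactory bulb, and 0.111, 0.108 and 0.113 in cerebellum. It rose in olfactory bulb by 0.25 ± 0.07 (adjusted p = 0.0012) and was lower in cerebellum by -1.09 ± 0.07 (adjusted p = 3.68e-49), near the median bin, with -0.04 for centred levels (adjusted p = 0.0777). The 5′ bin of Grin2b fell in cerebellum from a mean of 0.194 to 0.111 and did not pass in olfactory bulb against cortex.

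**Figure D5:**
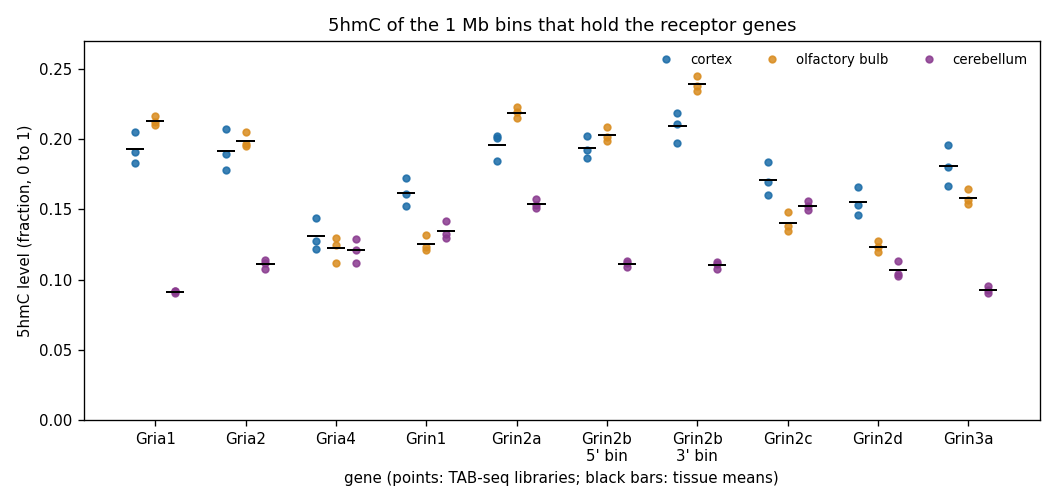
5hmC level (fraction, vertical axis, from 0) of the 1 Mb bins that hold the receptor genes, with 1 point per TAB-seq library and a black bar at the tissue mean. Gria4 is at about the same level in the 3 tissues, with means of 0.131, 0.122 and 0.121, while Gria1, Gria2, Grin2a, Grin2b, Grin2d and Grin3a are lowest in cerebellum.

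The Gria4 bin (chr9:4000001-5000000) was the receptor bin with the smallest loss. Its 5hmC was 0.127, 0.144 and 0.121 in cortex, 0.112, 0.130 and 0.125 in olfactory bulb, and 0.112, 0.129 and 0.121 in cerebellum, and all 3 tissues overlapped. The log2 ratio of cerebellum against cortex was -0.13 ± 0.07 (adjusted p = 0.0763), and passed as lower without cortex replicate 3 or cerebellum replicate 2 (adjusted p = 0.0118 and 0.0310), and with all libraries under limma's trend and robust options (adjusted p = 0.0497). With centred levels it was higher by 0.91 (adjusted p = 2.1e-07), where the median bin was at 0.076. Its log2 ratio without centring had a rank of 54 from the highest among 2581 bins. The bin minus the neighbouring bins was 0.0472 ± 0.00346 in cortex and 0.0604 ± 0.00175 in olfactory bulb, and 0.0781 ± 0.00689 in cerebellum (n = 3 each). The bin had the lowest 5hmC of the receptor bins in cortex. In cerebellum the Grin2a, Grin2c and Grin1 bins were above it, and the Gria1 bin was the lowest.

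The Grin2c and Grin1 bins also kept much of their 5hmC in cerebellum. The Grin2c bin had 0.169, 0.184 and 0.160 in cortex, 0.134, 0.148 and 0.138 in olfactory bulb, and 0.152, 0.149 and 0.156 in cerebellum. It was lower than cortex by -0.20 ± 0.07 (adjusted p = 0.00785) and higher than olfactory bulb by 0.14 ± 0.07, which did not pass (adjusted p = 0.0546). The Grin1 bin had 0.161, 0.172 and 0.152, then 0.121, 0.132 and 0.123, then 0.132, 0.130 and 0.142. With centred levels both were higher in cerebellum than in cortex, by 0.85 (adjusted p = 6.01e-10) and 0.73 (adjusted p = 1.99e-09). So were the bins of Grin2a (0.62), Grin2d (0.42), Gria2 (0.12) and the 5′ part of Grin2b (0.10), all of which were lower in cerebellum without centring. The median bin was itself at 0.076 with centred levels, close to the values of Gria2 and of the 5′ part of Grin2b. With centred levels 7 of the 10 receptor bins passed as higher, where 50.3% of all bins did.

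Summed over the same 1 Mb bins, 5mC and 5hmC together differed little between tissues in the Grin2b region. The sum was 0.831 ± 0.0173 in cortex and 0.852 ± 0.00768 in olfactory bulb, and 0.848 ± 0.00916 in cerebellum, where the error combines the SDs of both assays. The share of 5hmC in that sum was 24.2%, 26.0% and 13.1%, against 19.4%, 17.0% and 11.5% over all bins. For Gria1 the sum was 0.829 ± 0.0180, 0.820 ± 0.00902 and 0.797 ± 0.00901, and the share 23.3%, 26.0% and 11.5%. For Gria4 the share was 15.1%, 14.2% and 14.0%, under that of all bins in cortex and above it in cerebellum. For the Grin2c region it was 23.6%, 19.5% and 21.8%. Among the receptor regions the sum was closest between tissues for Gria4 (0.865, 0.862 and 0.863). It differed most for Grin2a (0.840, 0.910 and 0.857). Over all bins the means were 0.677, 0.707 and 0.731 for 5mC and 0.163, 0.145 and 0.0949 for 5hmC. Opposite shifts of 5mC and 5hmC are therefore not particular to the receptor regions. The 5mC of these sums came from other libraries than the 5hmC, and the sums were not tested.

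The 6 genes of at least 100 kb were compared with 2486 protein-coding genes of that length by the distance of their 5mC levels over the 7 oxBS-seq libraries. The nearest was Farp1 for Gria2 (distance 0.0178), Myo16 for Gria1 (0.0390), Tll1 for Gria4 (0.0281), Celf2, an RNA-binding protein, for Grin2b (0.0729) and Cyp7b1 for Grin3a (0.0220). For Grin2b this distance was the largest of the 5 given, with Celf2 at 0.540 ± 0.00683 in cortex and 0.541 ± 0.00628 in olfactory bulb, and 0.714 ± 0.0116 in cerebellum. These distances are a description over libraries that all genes share.

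A list of 21 genes for auxiliary subunits and synaptic partners of AMPA receptors (the Cacng, Cnih, Shisa, Nptx and Grip families and others) gives the background of the pathway. Relative to flanks, 8 of 21 were higher and 3 lower in cerebellum than in cortex, where 15.3% and 13% of all features passed in those directions, and the list's median was 0.0220 against 0.00137 for all features. The largest rises were Cacng3 (0.0779 ± 0.00922, adjusted p = 0.000439) and Cacng8 (0.0721 ± 0.0171, adjusted p = 0.0130), which encode TARP subunits that bring AMPA receptors to the surface. Genes of 1 neighbourhood stand in each other's flanks, as Cacng4 and Cacng5 do. The largest falls were Cacng2, which encodes stargazin, the TARP lost in the ataxic stargazer mouse (-0.0699 ± 0.00947, adjusted p = 0.000875), and Cacng4 (-0.0413 ± 0.0131, adjusted p = 0.0420). Cacng3 and Cacng8 rest on 2 bins each, Cacng2 on 3 and Cacng4 on 1. The part of a bin that a partner gene covers is not given, so these are values of regions. Without subtracting flanks Cacng3 was also higher (log2 ratio 0.86, adjusted p = 4.86e-11) and Cacng2 lower (-0.26, adjusted p = 0.0357). Cacng4 itself was higher in cerebellum than in cortex (0.32, adjusted p = 0.0098) and than in olfactory bulb (0.38, adjusted p = 0.0103), with flanks that were higher by more. Gene minus flanks of Cacng2 was -0.0731 ± 0.000479 in cortex and -0.0944 ± 0.00548 in olfactory bulb, and -0.143 ± 0.0131 in cerebellum, and that of Cacng3 was -0.0112 ± 0.00408, -0.0277 ± 0.00340 and 0.0667 ± 0.0102.

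In olfactory bulb against cortex 2 of the 21 partner genes were higher and 2 lower relative to flanks, where 5.87% and 4.76% of all features passed. The higher ones were Frrs1l (0.0426 ± 0.00964, adjusted p = 0.0251) and Shisa9 (0.0408 ± 0.00943, adjusted p = 0.0271). The lower ones were Cacng5 (-0.104 ± 0.00897, adjusted p = 0.000513) and Grip1, a scaffold that binds GluA2 (-0.0662 ± 0.00949, adjusted p = 0.00384). In cerebellum against olfactory bulb 9 were higher and 2 lower, where 13.8% and 13.1% passed, led by Grip1 (0.109 ± 0.0104, adjusted p = 0.000134) and Cacng3 (0.0945 ± 0.0101, adjusted p = 0.000244) among the rises and by Cacng4 (-0.0624 ± 0.0143, adjusted p = 0.0115) and Cacng2 (-0.0486 ± 0.0104, adjusted p = 0.00828) among the falls.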

How the data were processed

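The values used are levels of 5mC (7 oxBS-seq libraries) and 5hmC (9 TAB-seq libraries). The authors mapped reads uniquely to mm10 with Bismark (version not given in the sources used here), called CpG sites with a binomial model, and deposited 1 fraction from 0 to 1 per bin and library, with no coverage. The sources used here do not say how a bin's sites were combined, and the depth is unknown. Bins at 0 or 1 in even a single library of the assay were dropped (of 26327 bins of 100 kb, 25664 stayed, and of 2641 bins of 1 Mb, 2581). Chromosome ends in GRCm38 lay within 136546 bases of the last bin.

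The test was limma (3.58.1, R 4.3.3), fitted for each assay over all 3 tissues to log2(level/(1 - level)). p-values were adjusted by Benjamini-Hochberg over all bins or gene features, with a threshold of 0.05. A gene feature is a distinct set of 100 kb bins overlapped by a protein-coding gene (genes with the same bins count as 1), with the bins averaged without weights. Gene minus flanks was tested on the fraction scale, since a shift of a whole library cancels there. Single values were compared with two-sided exact permutation tests. The fits were tested on simulated data with known changes. Other steps used Python 3.11.15, numpy 2.4.6, pandas 2.3.3 and matplotlib 3.10.9.

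Groups and replicate numbers came from the labels. The members, the list of AMPA receptor partners and the marker lists were chosen with earlier results of these data known. All 9 receptor genes are named, with the nearest gene of each that spans at least 100 kb (that of Grin2a is not reported here), and of the partner list the 2 largest rises and falls among those that passed in gene minus flanks. Alternatives were other scales, centred levels, no filter, limma's trend and robust options, other weights and flank widths (250 kb and 1 Mb), 1 Mb bins, leaving out each library, and a block for the replicate number. A second set of block numbers, those of the deposited library names, was chosen after seeing the data. RNA-seq libraries were not analysed here. Sequencing batches are not given in the sources used here.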

Additional observations from a re-analysis of the deposited data

How the results depend on the processing

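The depth behind a level is unknown, and with 2 or 3 libraries per tissue the exact permutation test could not go below 0.1 or 0.333, so the calls rest on the spread that limma shares between features. The counts of receptor genes and bins that passed were within 1.5 times the main count in 79 of 87 alternatives that kept all libraries. The 8 others were as follows, and the cause was not tested beyond their construction. For 5mC per 100 kb bin in olfactory bulb against cortex, centred levels gave 14 calls in place of 9. Bins averaged into 1 Mb gave 4, 6 and 6 calls of only 10 bins in olfactory bulb against cortex, cerebellum against cortex and cerebellum against olfactory bulb, where 61.5%, 85.5% and 57.1% of all bins passed. In olfactory bulb against cortex these were 4 higher and 0 lower, against 4 and 5 of the 100 kb bins. For gene minus flanks in olfactory bulb against cortex (5 calls), the log2 ratio scale gave 3, and limma's trend and robust options gave 2.

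The replicate numbers were not taken to pair the libraries, since not every correlation between the deviations of libraries with the same number was above 0.1. Such correlations cannot settle whether libraries of different tissues share a mouse. The correlations were between -0.0932 and 0.029 for 5mC and between -0.191 and 0.429 for 5hmC, and for 5hmC in cerebellum and olfactory bulb all 3 were positive, the lowest at 0.0566. With the replicate number of the labels, or that of the library names, as a block, gene minus flanks in olfactory bulb against cortex fell to 2 calls, and the other counts stayed within 1.5 times. For single genes, the block with the labels' numbers turned the difference of Grin1 in cerebellum against cortex to -0.016. In the same comparison it ended the calls of Grin2a per gene (adjusted p = 0.0997) and of Gria2 in gene minus flanks (adjusted p = 0.0638).

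Leaving out each library in turn gave 3 to 9, 19 to 22 and 16 to 21 calls of 28 for 5mC per 100 kb bin in olfactory bulb against cortex, cerebellum against cortex and cerebellum against olfactory bulb. In the same order it gave 6 to 9, 9 to 10 and 7 to 9 of 10 for 5hmC, 0 to 3, 5 to 6 and 4 to 5 of 9 for 5mC per gene, and 1 to 4, 3 to 5 and 5 to 5 of 9 for gene minus flanks. Without cortex replicate 3 the uncalled 5mC difference of Grin1 in cerebellum against cortex was -0.016, and over all libraries left out it was between -0.016 and 0.059.

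Centring each library on its median turned 13 differences given here. For 5mC per gene in cerebellum against cortex these were Grin1 (-0.35), Grin2a (-0.13) and Grin2d (-0.20). For 5hmC in cerebellum against cortex they were the bins of Gria2 (0.12), Gria4 (0.91), Grin1 (0.73), Grin2a (0.62), Grin2c (0.85), Grin2d (0.42) and the 5′ part of Grin2b (0.10), in cerebellum against olfactory bulb those of Grin2a (0.18) and Grin2d (0.56), and in olfactory bulb against cortex that of Grin3a (0.013). It ended the per-gene calls of Grin2a in olfactory bulb against cortex (0.18) and of Grin3a in cerebellum against cortex (0.19) and against olfactory bulb (0.18). Of 49 differences that did not pass and for which no test value is given, 26 changed sign under at least 1 alternative and 19 passed under at least 1.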
